A study of Mus musculus with 13 samples.

Results

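The interferon-stimulated genes described here are 39 mouse genes, taken by symbol and kept where they reached at least 1 FPKM in at least 3 of 13 RNA-seq libraries. FPKM are counts of sequenced fragments scaled by transcript length and library size. All 39 of 39 passed, among 13118 of 33432 named gene rows that did. Gbp5, at 1 FPKM or more in 3 libraries, was just inside that limit, and no member fell outside it. Of the 39 genes, 6 had fewer than 3 such libraries outside the pre-leukemic group and passed through its libraries, namely Oas3, Oasl1, Mx1, Mx2, Ifi44 and Gbp5. The libraries came from cells sorted as mesenchymal stromal cells (MSCs), the connective-tissue cells of marrow that support blood formation, out of marrow and compact bone of mice labelled C57BL/6, on a C57BL/6J background per the protocol. The groups were 4 recovered libraries, 6 pre-leukemic libraries and 3 healthy libraries, labelled "Healthy hemeostatic". The growth protocol names pre-leukemic mice, pre-leukemic mice that were given MSCs, which matches the recovered group, and control mice. The sources used here do not name the mutation behind the pre-leukemic state, the age of the mice or the surface markers of the sort. Nor do they say that each library had a mouse of its own, so the p-values measure spread between libraries, which may be technical.

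Interferons are secreted proteins that warn cells of infection. Type I interferons, such as interferon beta, signal through the kinases Jak1 and Tyk2 to a complex that includes Stat2 and Irf9, which binds a DNA element called ISRE. Interferon gamma, made mainly by T and NK cells, signals through Jak1 and Jak2 to genes with an element called GAS. Both switch on overlapping sets of genes whose products detect or degrade foreign RNA, block virus entry or assembly, attack vacuoles with pathogens, and raise or curb the response itself. In marrow, interferons are known to act on stromal cells as well as on blood cells.

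All changes below are differences of log2(FPKM + 1), the group named first minus the one it is set against, with their standard error (SE). They understate changes of genes with low values. They come from 1 limma fit over 13118 genes, and a gene is called higher or lower at a Benjamini-Hochberg adjusted p under 0.05 over all of them. Libraries healthy 1 and healthy 3 differed by little more than counting noise (chi-square per gene 1.23 over 171 genes with an estimated 100 to 1000 reads, against at least 23.7 for the other 23 pairs of the same group). They were counted as 1 sample, so that n is 4 recovered, 6 pre-leukemic and 2 healthy samples. A value of 1 read on 1 kb was estimated at 0.343 to 0.631 FPKM in recovered, 0.163 to 0.242 in pre-leukemic and 0.311 to 0.378 in healthy libraries, so members below about 1 FPKM rest on a few reads.

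The cells in the libraries differed between groups beyond interferon genes. Of 14 stromal markers, 9 were lower and 0 higher in pre-leukemic than in healthy samples (median change -3.70), while 12 of 12 pan-leukocyte markers (median 5.21), 9 of 9 plasma cell markers, 10 of 12 T and NK cell markers and 7 of 10 neutrophil markers were higher. Their summed levels did not overlap, at 2770 to 4037 FPKM of pan-leukocyte genes in pre-leukemic and 92.9 to 112 FPKM in healthy libraries. Stromal markers summed to 97.6 to 265 FPKM in pre-leukemic and 3190 to 3758 FPKM in healthy libraries, so that the defining markers of the labelled cell type were low in the pre-leukemic libraries. Ptprc, the leukocyte antigen CD45, was at 0.483, 16.4, 1.21 and 0.365 FPKM in recovered 1 to 4, between 80.7 and 155 FPKM in the pre-leukemic libraries (median 138), and at 0.592, 0.0798 and 1.25 FPKM in healthy 1 to 3. In recovered libraries stromal markers summed to 1784 to 2655 FPKM and pan-leukocyte markers to 44.7 to 379.7 FPKM, the highest of these in recovered 3. Plasmacytoid dendritic cell markers, of cells known as strong makers of type I interferon, were higher in pre-leukemic than in healthy samples for 6 of 8 genes. Their sums were 50.1 to 143 FPKM in recovered, 922 to 2424 FPKM in pre-leukemic and 156 to 268 FPKM in healthy libraries. Among defining markers, Cd3d and Trac of T cells, Ccr9 and Klk1 of plasmacytoid dendritic cells, and Prdm1 and Tnfrsf17 of plasma cells were listed at 0 in all recovered and all healthy libraries. Other genes of these lists were above 0 there. T and NK markers summed to 8.95 to 77.85 FPKM in recovered, 597 to 952 in pre-leukemic and 18.8 to 37 in healthy libraries. Plasma cell markers summed to 78 to 165.5, 46630 to 72870 and 145 to 181 FPKM in the same order. Erythroid markers were higher in recovered than in healthy samples for 4 of 4 tested genes. The share of summed FPKM that fell on immunoglobulin genes was at most 0.134% in recovered libraries, 54.9 to 80.5% in pre-leukemic libraries and at most 0.03% in healthy libraries. In bulk samples fewer cells of a type and less RNA per cell cannot be told apart, and the part of these marker changes in the interferon gene changes was not tested.

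**Figure D1:**
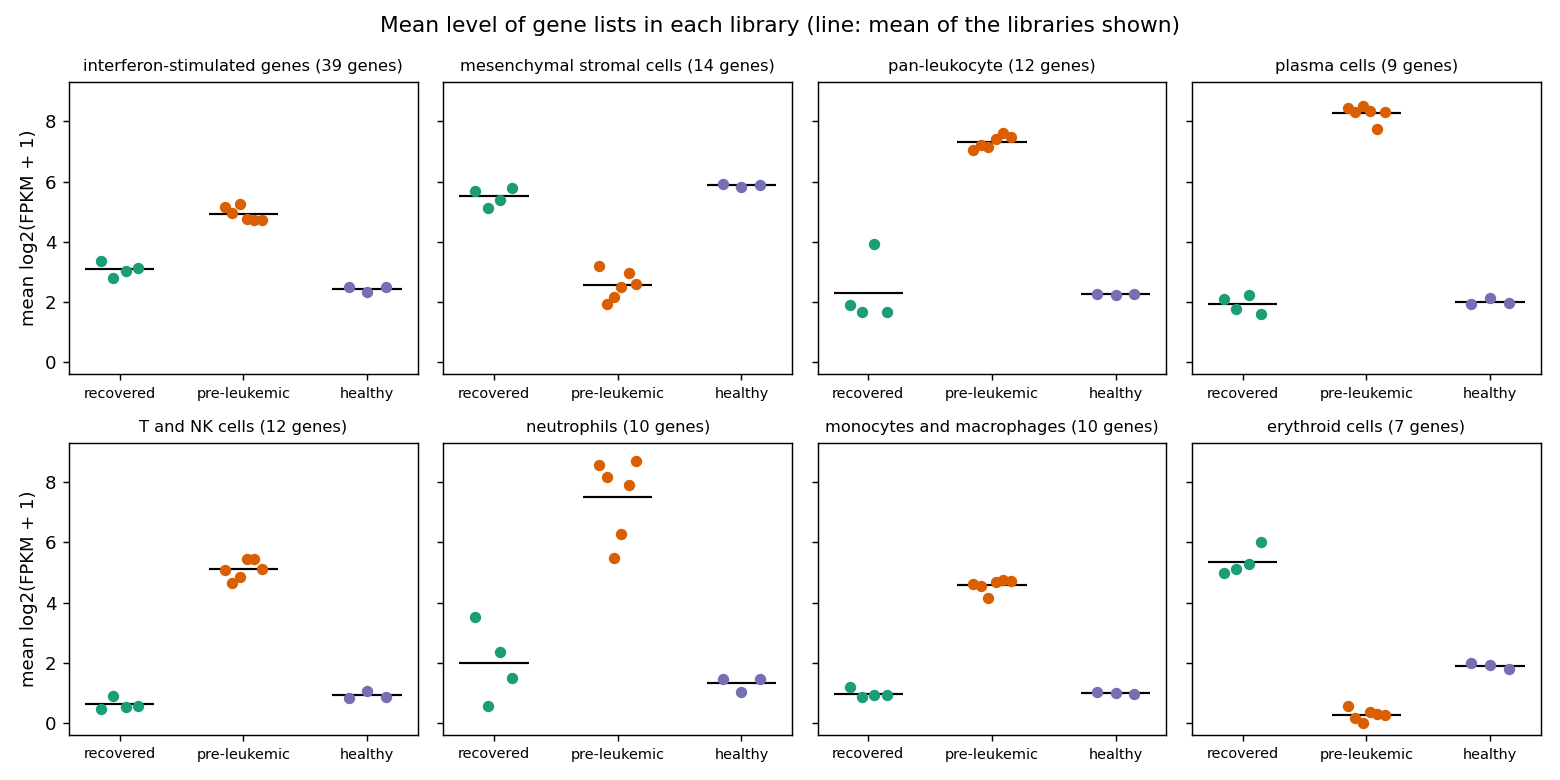
Mean log2(FPKM + 1) of the 39 interferon-stimulated genes and of 7 lists of cell type markers. Each point is a library, the horizontal line is the mean of the libraries shown, and the y axis is the same in every panel. The interferon-stimulated genes lie at 2.79 to 3.35 in recovered, 4.71 to 5.24 in pre-leukemic and 2.32 to 2.50 in healthy libraries, and the 5 panels of blood leukocytes, plasma cells included, are also highest in pre-leukemic libraries.

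On the deposited scale, 26 of the 39 interferon-stimulated genes were higher in pre-leukemic than in healthy samples. Of these, 19 were lower in recovered than in pre-leukemic samples, and the share of all tested genes called in both ways was not counted. The 26 were 66.7% of the members, while 2 were lower and 11 were not called, against 14.2% of all tested genes higher and 13.1% lower. The median change of the members was 2.81, against 0.20 over all tested genes. Of the members, 4 were listed at 0 in every healthy library, and without them the median was 2.60. A gene that passed the filter only through the pre-leukemic libraries is bound to be high there. Among the 33 members that passed without them, a count chosen after seeing the data, 21 were higher (63.6%) and 2 lower, against 9.43% higher and 15.9% lower of 10818 genes that did so. In 30 of 39 members every pre-leukemic library lay above every healthy library (23.7% of all tested genes), and in 1, Ifitm2, every pre-leukemic library lay below (20.6%).

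The scale of the libraries bears on these counts. Rescaled so that every library had the same summed FPKM (the TPM scale), which the immunoglobulin genes dominate in pre-leukemic libraries, 14 members were higher and 3 lower, and the median change over all genes shifted by -1.28. A rescaling shifts members and other genes nearly alike, and the members' median lay 2.61 above that of all genes on both scales. Over all genes the rescaling gave 791 higher and 4200 lower, against 1858 higher and 1725 lower on the deposited scale. Without healthy 2, which leaves 1 healthy sample assumed to vary like the other groups, 15 members were higher and 1 lower.

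**Figure D2:**
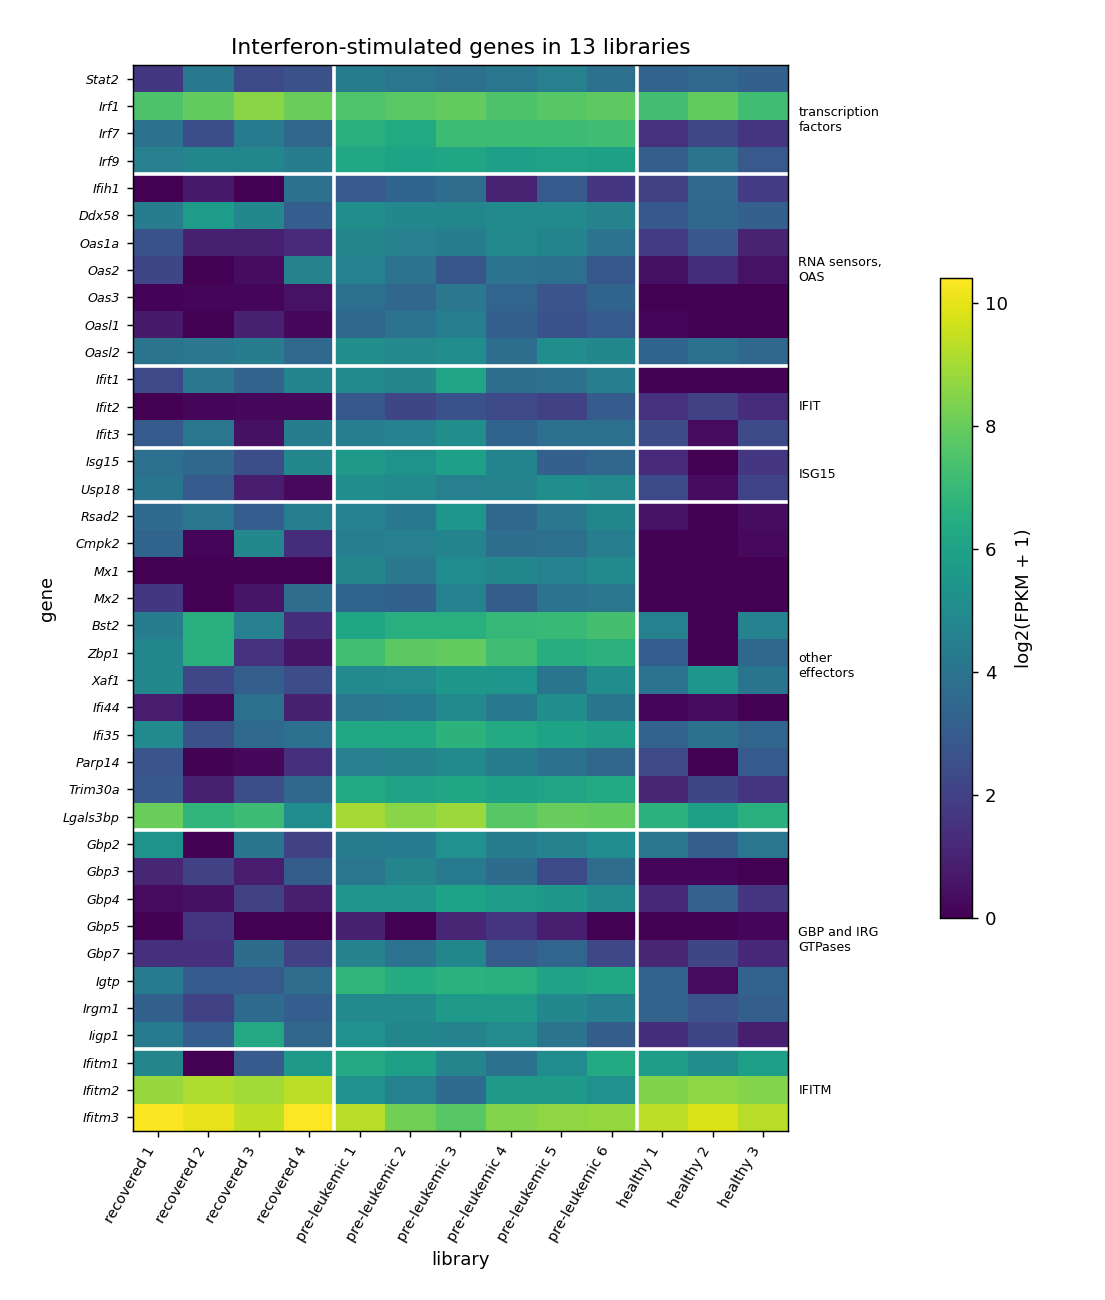
Level of the 39 genes as log2(FPKM + 1), by colour, with 1 row per gene and 1 column per library. White lines divide the groups of libraries and the functional classes of genes. Most rows are brightest in the 6 pre-leukemic columns. The rows of Ifitm2 and Ifitm3 are darkest there, and Irf1 is bright in all 13 columns.

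Between recovered and pre-leukemic samples 22 members (56.4%) were lower, 2 were higher and 15 were not called, against 25.1% of all tested genes lower and 14.8% higher. The median change was -1.85, against -0.41 over all tested genes. Among the 33 members that passed the filter without pre-leukemic libraries, 17 were lower (51.5%) and 2 higher, against 19.9% lower and 18% higher of all such genes. On the TPM scale 10 members were lower and 3 higher, and the members' median lay -1.29 from that of all genes, against -1.45 as deposited. The counts over all genes were 1945 higher and 3299 lower as deposited, 3768 higher and 1213 lower on the TPM scale, and 2460 higher and 2424 lower under quantile normalization. In the same comparison 12 of 12 pan-leukocyte markers were lower (median -5.31) and 12 of 14 stromal markers higher. Between recovered and healthy samples 2 members were higher, 0 lower and 37 not called, against 0.518% of all tested genes higher and 1.99% lower. At an unadjusted p under 0.05 by limma, 10 members were higher (25.6%) and 3 lower (7.69%), against 5.73% and 10.7% of all tested genes. The median change was 0.47, against -0.08 over all tested genes. Over all genes 68 were higher and 261 lower, and on the TPM scale 48 higher and 401 lower. These 3 comparisons share samples and are given side by side. Members of the OAS, IFIT, GBP, IRG and IFITM families have close paralogues, and the sources used here do not say how reads shared between copies were split, so their levels are uncertain to that extent.

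Read together for each gene, 19 members were higher in pre-leukemic than in healthy samples and lower in recovered than in pre-leukemic samples, and were not called between recovered and healthy samples. They were Irf7, Irf9, Oas1a, Oas3, Oasl1, Usp18, Mx1, Mx2, Bst2, Zbp1, Ifi44, Ifi35, Parp14, Trim30a, Lgals3bp, Gbp3, Gbp4, Igtp and Irgm1. Both comparisons share the pre-leukemic samples, and the share of all tested genes with this pattern was not counted. Of the 19, Oas3, Oasl1, Mx1, Mx2 and Ifi44 passed the filter through the pre-leukemic libraries and were bound to be high there. Another 7 were higher in pre-leukemic than in healthy samples and not called lower in recovered samples, namely Ifit1, Rsad2, Isg15, Ifit3, Cmpk2, Ddx58 and Iigp1. Ifitm2 and Ifitm3 ran the other way, lower in pre-leukemic and higher in recovered samples. Stat2, Ifit2 and Xaf1 were called only between recovered and pre-leukemic samples, where they were lower, and 8 members were called in no comparison.

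**Figure D3:**
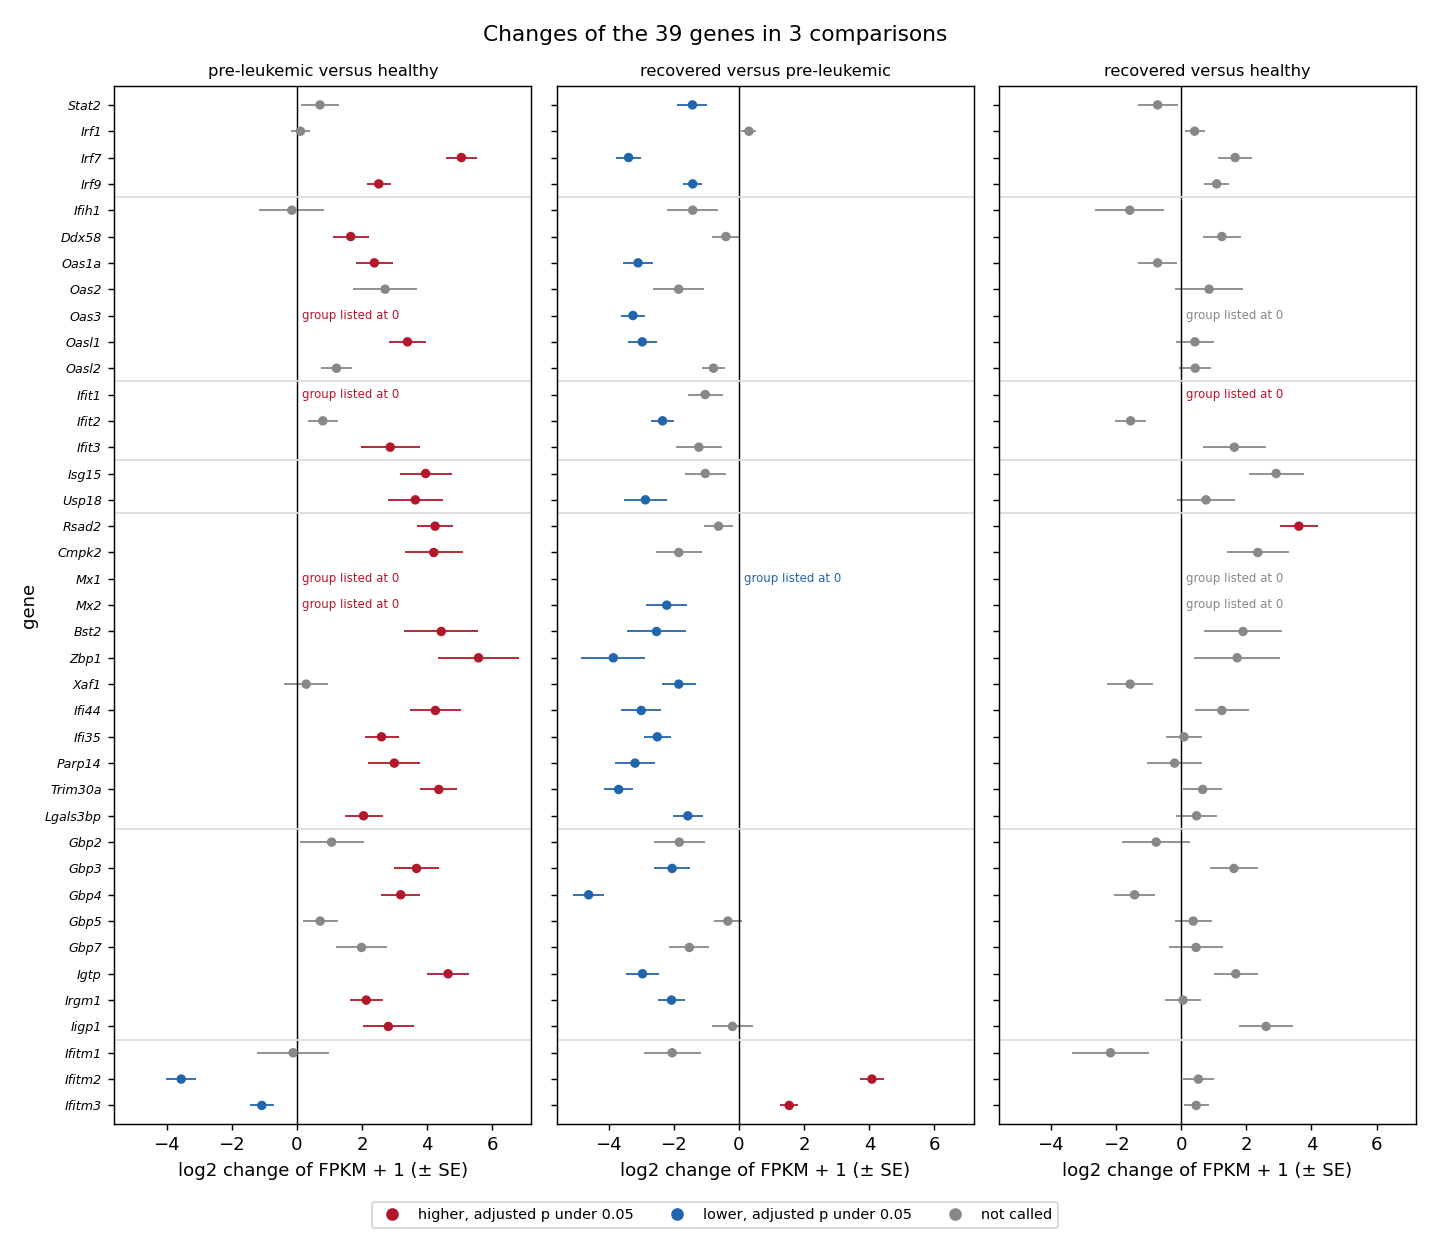
Change of each gene on the log2(FPKM + 1) scale (x axis) with its SE as a bar, 1 panel per comparison and 1 row per gene. Red points were higher and blue points lower at an adjusted p under 0.05, and a gene for which 1 of the groups compared was listed at 0 in every library has that remark in the colour of its call and no point. Most points lie right of 0 in the left panel and left of 0 in the middle panel, and in the right panel Ifit1 and Rsad2 are called.

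The elements ISRE and GAS were searched in the DNA around the starts of these genes. RefSeq promoter sequences (GRCm38.p6, 250 bases before to 50 after each start) were matched for 31 of the 39 members by symbol. The ISRE core was searched as 2 copies of GAAA with any 2 bases between them, or TTTC in the same arrangement for the other strand, and the GAS core as TTCNNNGAA, which reads the same on both strands. Each motif was counted on its own, also where both overlap. An ISRE match stood in a promoter of 19 of 31 members (61.3%), against 3.82% of 9398 tested genes and 3.99% of all 27025 genes with a promoter there. A GAS match stood in 9 of 31 (29%), against 8.46% of the tested genes, and 6 members had both. The members were chosen as interferon targets, so these shares describe the choice.

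Sequences are shown for each class that had members with an ISRE match in the 150 bases before a start. Among those members, the one with the smallest p in pre-leukemic versus healthy samples was taken, so every sequence shown was chosen to hold a match. They are given 5′ to 3′ on the gene's strand, with ISRE matches in capitals.
Oas3, chr5:120777660-120777809, minus strand: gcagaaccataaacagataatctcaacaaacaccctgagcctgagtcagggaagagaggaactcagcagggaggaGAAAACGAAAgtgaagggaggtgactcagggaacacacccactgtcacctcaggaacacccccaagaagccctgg
Ifit1, chr19:34640739-34640888, plus strand: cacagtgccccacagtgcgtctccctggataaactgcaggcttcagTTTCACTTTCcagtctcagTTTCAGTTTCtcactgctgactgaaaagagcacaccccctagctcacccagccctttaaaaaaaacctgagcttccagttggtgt
Isg15, chr4:156200819-156200968, minus strand: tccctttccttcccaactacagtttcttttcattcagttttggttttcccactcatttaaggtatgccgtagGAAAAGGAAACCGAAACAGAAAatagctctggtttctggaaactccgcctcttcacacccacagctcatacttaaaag
Trim30a, chr7:104465194-104465343, minus strand: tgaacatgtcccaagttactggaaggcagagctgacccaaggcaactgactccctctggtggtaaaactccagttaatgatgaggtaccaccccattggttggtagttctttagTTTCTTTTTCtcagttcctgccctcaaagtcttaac
Igtp, chr11:58199406-58199555, plus strand: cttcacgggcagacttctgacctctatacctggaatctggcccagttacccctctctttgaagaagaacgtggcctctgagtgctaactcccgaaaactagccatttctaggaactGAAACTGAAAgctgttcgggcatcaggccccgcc
Ifitm2, chr7:140955962-140956111, minus strand: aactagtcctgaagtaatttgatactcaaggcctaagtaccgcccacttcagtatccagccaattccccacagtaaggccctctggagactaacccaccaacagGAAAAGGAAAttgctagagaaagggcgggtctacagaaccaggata

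Ifit1 holds 2 separate matches and Isg15 3 that overlap each other. The Ifitm2 promoter holds the same core as the others, although its RNA was lower in pre-leukemic samples. Of the 19 members with an ISRE match, 12 were higher and 2 lower in pre-leukemic than in healthy samples (median change 2.38). Of the 12 without one, 7 were higher and 0 lower (median 2.28). A match is a description of letters, not a binding site, and its absence says only that these letters are not in this window.

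Among the transcription factors, Irf7 and Irf9 were higher in pre-leukemic samples, and Irf1 was not called in any comparison. Irf7 drives the transcription of type I interferon genes and is itself an interferon target (GRCm38 chromosome 7, 141262706 to 141266481). Irf7 was at 14, 4.72, 18.3 and 9.79 FPKM in recovered 1 to 4, between 79.8 and 148 FPKM in the pre-leukemic libraries (median 139), and at 1.82, 3.59 and 2.03 FPKM in healthy 1 to 3. The 3 groups did not overlap, with recovered libraries between the others. The pre-leukemic change against healthy was 5.05 ± 0.48, adjusted p = 5e-06, the recovered change against pre-leukemic was -3.39 ± 0.38, adjusted p = 8.82e-06, and the recovered change against healthy, 1.66 ± 0.51, adjusted p = 0.115, did not pass except without recovered 2 (0.0321) and with healthy 1 and 3 kept apart (0.0286).

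Irf9 is a DNA-binding subunit of the complex with Stat2 (chromosome 14, 55603571 to 55610030). Irf9 was at 22.1, 26.1, 26.3 and 19.9 FPKM in recovered 1 to 4, between 58.1 and 71.9 FPKM in the pre-leukemic libraries (median 63.9), and at 7.91, 15.1 and 6.45 FPKM in healthy 1 to 3. Its groups were also separate, in the same order. It rose by 2.51 ± 0.37, adjusted p = 0.000163, in pre-leukemic against healthy samples and fell in recovered against pre-leukemic samples (-1.42 ± 0.29, adjusted p = 0.00142). On the TPM scale neither change passed (adjusted p = 0.171 and 0.992), and the recovered change against pre-leukemic was 0.01.

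Stat2, the partner of Irf9 in that complex, changed less. Stat2 was at 2.18, 17.4, 4.06 and 4.97 FPKM in recovered 1 to 4, between 13.2 and 22.4 FPKM in the pre-leukemic libraries (median 16), and at 8.95, 10.7 and 8.49 FPKM in healthy 1 to 3. Every pre-leukemic library lay above every healthy library by a small margin, and the change did not pass (0.71 ± 0.58, adjusted p = 0.392). Recovered 2 lay within the pre-leukemic range and the other recovered libraries below it. The recovered fall (-1.43 ± 0.46, adjusted p = 0.0234) was not called under quantile normalization (0.0637), on the TPM scale (0.877), with the replicate block (0.0644), without recovered 1 (0.0709) or without pre-leukemic 5 (0.0501). Irf1, a factor induced by interferon gamma and other inflammatory signals, was high in all groups. Irf1 was at 181, 237, 378 and 262 FPKM in recovered 1 to 4, between 179 and 236 FPKM in the pre-leukemic libraries (median 210.4), and at 155, 241 and 149 FPKM in healthy 1 to 3. The groups overlapped, and its change in pre-leukemic against healthy samples was 0.11 ± 0.29, adjusted p = 0.815. On the TPM scale Irf1 was lower in pre-leukemic than in healthy samples (adjusted p = 0.0104) and higher in recovered than in pre-leukemic samples (0.00068).

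The class of RNA sensors and oligoadenylate synthetases had 4 of 7 members higher in pre-leukemic than in healthy samples and 3 of 7 lower in recovered than in pre-leukemic samples. Oligoadenylate synthetases answer double-stranded RNA with a messenger that activates RNase L. Oas3 was at 0.0786, 0.0886, 0.131 and 0.427 FPKM in recovered 1 to 4, between 5.74 and 16.6 FPKM in the pre-leukemic libraries (median 9.74), and listed at 0 in healthy 1 to 3. All 6 pre-leukemic libraries lay above the other 7, where Oas3 was at most 0.427 FPKM. Oas3 was higher in pre-leukemic than in healthy samples (adjusted p = 9.34e-05) and lower in recovered than in pre-leukemic samples (-3.25 ± 0.37, adjusted p = 1.1e-05). It passed the filter through the pre-leukemic libraries alone and was thus bound to be high there, so these p-values are no separate support.

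Oasl1, a relative without the synthetase activity that in mice restrains Irf7 translation, followed the same course. Oasl1 was at 0.679, 0, 0.927 and 0.164 FPKM in recovered 1 to 4, between 5.07 and 21.6 FPKM in the pre-leukemic libraries (median 9.02), and at 0.148, 0 and 0 FPKM in healthy 1 to 3. The pre-leukemic libraries stood apart from all others, with changes of 3.39 ± 0.56 against healthy samples (adjusted p = 0.00044) and -2.97 ± 0.44 for recovered against pre-leukemic samples (adjusted p = 0.000109). Oasl1 also passed the filter through the pre-leukemic libraries alone, so it was bound to be high there. Oas1a was at 5.18, 0.925, 0.88 and 1.44 FPKM in recovered 1 to 4, between 14.5 and 29.1 FPKM in the pre-leukemic libraries (median 23.6), and at 2.63, 6.15 and 0.977 FPKM in healthy 1 to 3. Oas1a showed the same separation (2.38 ± 0.57, adjusted p = 0.00658, against healthy; -3.10 ± 0.45, adjusted p = 9.32e-05, in recovered against pre-leukemic samples), and the first call ended on the TPM scale (0.316).

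Oas2 and Oasl2 gave positive changes in pre-leukemic against healthy samples that did not pass (2.71 ± 0.98, adjusted p = 0.0538, and 1.22 ± 0.46, adjusted p = 0.0656). Both passed in several alternatives, among them with immunoglobulin genes left out of the library totals used for scaling (0.0395 and 0.0429). Others were the replicate block and healthy 1 and 3 kept apart, which count those near-identical libraries as separate samples. Oas2 reached 24.4 FPKM in recovered 4 and was at 0 to 3.56 FPKM in the other recovered libraries. Of the sensors that recognize viral RNA in the cytoplasm, Ddx58 (RIG-I) was at 19.5, 51.4, 27 and 7.73 FPKM in recovered 1 to 4, between 23.9 and 35.7 FPKM in the pre-leukemic libraries (median 28.9) and at 6.33, 10 and 8.1 FPKM in healthy 1 to 3. It rose in pre-leukemic against healthy samples (1.65 ± 0.55, adjusted p = 0.0367), a call that ended on the TPM scale (0.924), without healthy 2 (0.127) and without any 1 of pre-leukemic 1 to 5 (0.0528 to 0.066). It was not called between recovered and pre-leukemic samples (-0.40 ± 0.43, adjusted p = 0.484). Ifih1 (MDA5) was not called in any comparison, with a change of -0.16 ± 0.99 in pre-leukemic against healthy samples, and recovered 4 held 14.1 FPKM against 0 to 0.686 FPKM in the other recovered libraries. Without recovered 4 it was lower in recovered than in pre-leukemic samples (adjusted p = 0.0111).

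The IFIT proteins bind foreign RNA and block its translation, and the 3 members differed in recovered samples. Ifit1 was at 3.87, 16.4, 9.03 and 24.6 FPKM in recovered 1 to 4, between 12.6 and 65.7 FPKM in the pre-leukemic libraries (median 23.3), and listed at 0 in healthy 1 to 3 (chromosome 19, 34640871 to 34650009). All recovered and all pre-leukemic libraries lay above the healthy ones, and recovered overlapped pre-leukemic. Ifit1 was higher in pre-leukemic (adjusted p = 0.000183) and in recovered (adjusted p = 0.0182) than in healthy samples, and was not called between recovered and pre-leukemic samples (-1.04 ± 0.54, adjusted p = 0.14). Without healthy 2 the call of recovered against healthy ended (0.176).

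Ifit2 was at 0, 0.11, 0.163 and 0.177 FPKM in recovered 1 to 4, between 2.98 and 7.18 FPKM in the pre-leukemic libraries (median 4.5), and at 1.76, 3.01 and 1.52 FPKM in healthy 1 to 3. Recovered libraries were the lowest of the 3 groups and lay below all others. The recovered fall against pre-leukemic was -2.35 ± 0.36, adjusted p = 0.000146, while the change against healthy, -1.55 ± 0.48, adjusted p = 0.119, passed only with a pseudocount of 0.1 (0.0483) and with healthy 1 and 3 kept apart (0.0474). Ifit3 was at 6.76, 15.8, 0.371 and 20.4 FPKM in recovered 1 to 4, between 9.25 and 34.2 FPKM in the pre-leukemic libraries (median 17.5), and at 4.42, 0.223 and 4.1 FPKM in healthy 1 to 3. Ifit3 was higher in pre-leukemic than in healthy samples (2.86 ± 0.91, adjusted p = 0.0298), and recovered libraries spanned both ranges. That call ended on the TPM scale (0.231), with no filter (0.0569), with the replicate block (0.0798), without healthy 2 (0.386) and without any 1 of pre-leukemic 1 to 3 (0.051 to 0.0544).

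Isg15, a ubiquitin-like protein attached to other proteins, and Usp18, which removes it and dampens the type I receptor, were both higher in pre-leukemic than in healthy samples. Isg15 was at 13.1, 10.3, 4.73 and 27 FPKM in recovered 1 to 4, between 8.16 and 58.2 FPKM in the pre-leukemic libraries (median 32.2), and at 1.46, 0 and 2.15 FPKM in healthy 1 to 3. All recovered and pre-leukemic libraries lay above the healthy ones. The pre-leukemic change was 3.95 ± 0.79, adjusted p = 0.00195, and without healthy 2 it did not pass (0.0712). The recovered change against healthy, 2.92 ± 0.84, adjusted p = 0.0935, did not pass, except with healthy 1 and 3 kept apart (0.0416), and neither did that against pre-leukemic (-1.03 ± 0.63, adjusted p = 0.203). Usp18 was at 15.5, 6.68, 0.73 and 0.199 FPKM in recovered 1 to 4, between 22.2 and 35.2 FPKM in the pre-leukemic libraries (median 29.2), and at 3.99, 0.22 and 3.23 FPKM in healthy 1 to 3. Recovered 1 and 2 lay above recovered 3 and 4, and all 4 below every pre-leukemic library. Usp18 changed by 3.64 ± 0.84, adjusted p = 0.00525, in pre-leukemic against healthy samples and by -2.87 ± 0.67, adjusted p = 0.00357, in recovered against pre-leukemic samples. Both calls ended on the TPM scale (0.08 and 0.126), and the first without healthy 2 (0.149).

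**Figure D4:**
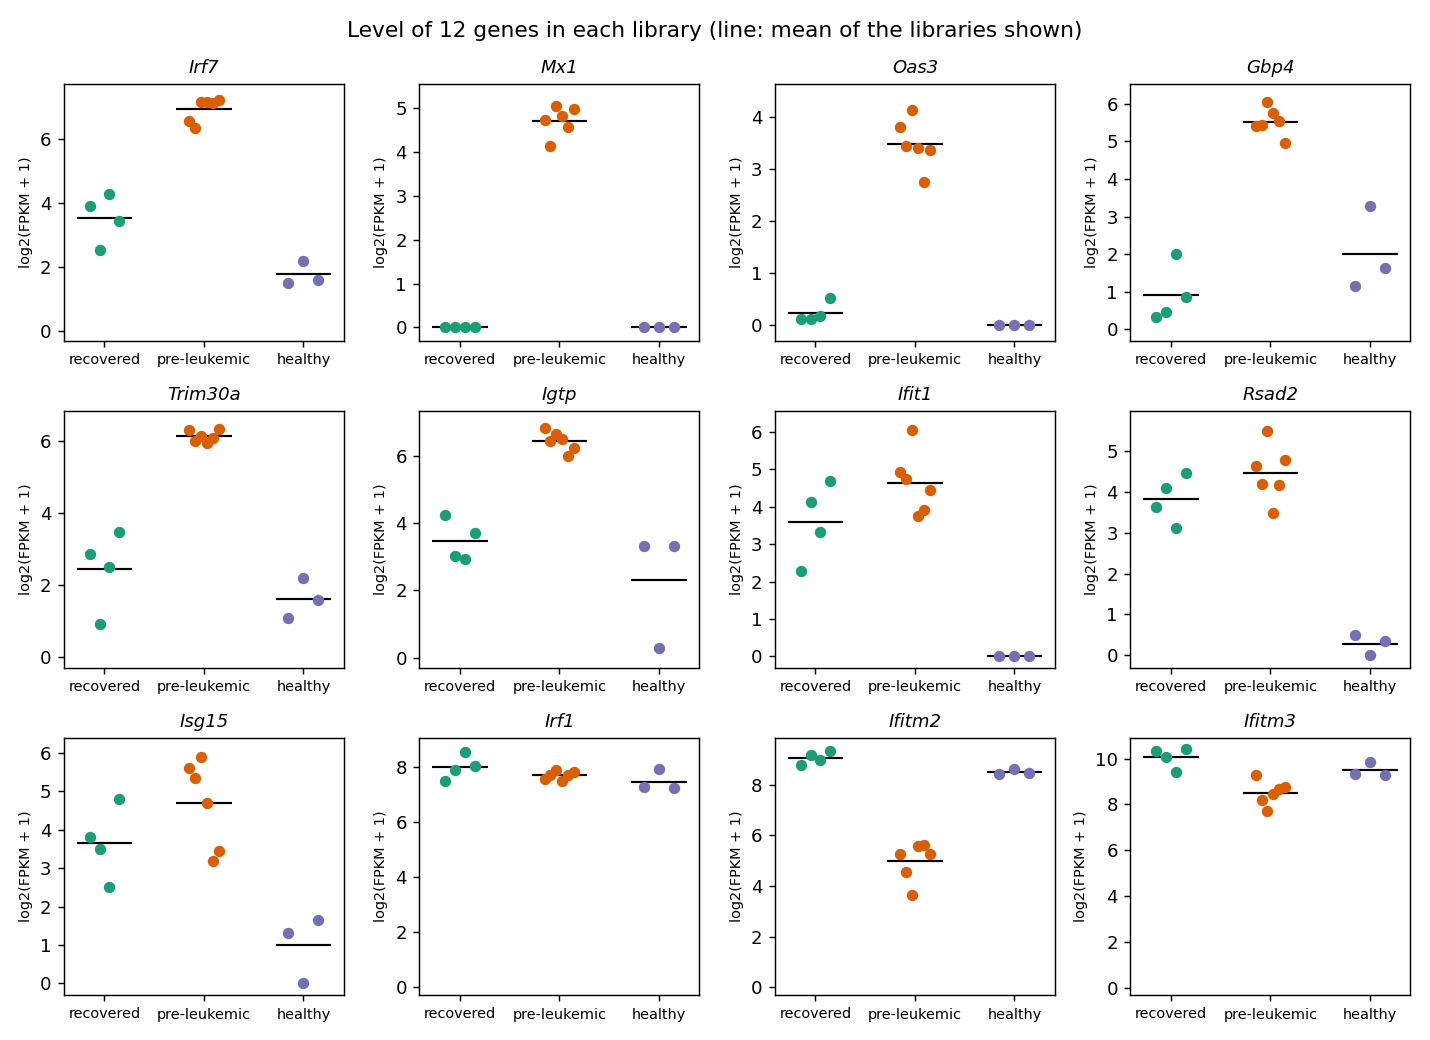
Level of 12 of the genes as log2(FPKM + 1) in each library (points), with the mean of the libraries shown as a line and a y axis of its own in each panel. Irf7, Mx1, Oas3, Gbp4, Trim30a and Igtp are highest in the 6 pre-leukemic libraries. Ifit1, Rsad2 and Isg15 are above healthy in all recovered libraries, Irf1 overlaps between groups, and Ifitm2 and Ifitm3 are lowest in pre-leukemic libraries, with pre-leukemic 1 within the healthy range for Ifitm3.

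The other antiviral and signalling effectors had 11 of 12 members higher in pre-leukemic than in healthy samples and 10 of 12 lower in recovered than in pre-leukemic samples. Mx1 encodes a dynamin-like GTPase that traps viral particles, and C57BL/6 mice are known to carry a defective allele of it (chromosome 16, 97447035 to 97462907). Mx1 was listed at 0 in recovered 1 to 4, between 16.5 and 32.5 FPKM in the pre-leukemic libraries (median 26.5), and listed at 0 in healthy 1 to 3. Mx1 was above 0 in every pre-leukemic library and in none of the other 7, and it entered the fit through the pre-leukemic libraries alone (adjusted p = 5.03e-06 against healthy; 2.48e-07 for recovered against pre-leukemic). Its paralogue Mx2 was at 2.22, 0, 0.525 and 12.3 FPKM in recovered 1 to 4, between 7.5 and 23.7 FPKM in the pre-leukemic libraries (median 11.8), and listed at 0 in healthy libraries, so that recovered 4 lay within the pre-leukemic range. Mx2 was higher in pre-leukemic than in healthy samples (adjusted p = 0.00314) and lower in recovered than in pre-leukemic samples (-2.22 ± 0.63, adjusted p = 0.0127), the second not on the TPM scale (0.234). Mx2 would not have passed the filter without the pre-leukemic libraries, so it too was bound to be high there.

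Rsad2 (viperin) makes a chain-terminating nucleotide that stops viral RNA synthesis (chromosome 12, 26442746 to 26456452). Rsad2 was at 11.4, 16.1, 7.59 and 21.1 FPKM in recovered 1 to 4, between 10.2 and 43.5 FPKM in the pre-leukemic libraries (median 20.5), and at 0.404, 0 and 0.271 FPKM in healthy 1 to 3. Like Ifit1, it was higher than in healthy libraries in all 6 pre-leukemic and all 4 recovered libraries. The changes against healthy samples were 4.24 ± 0.56, adjusted p = 7.26e-05, in pre-leukemic and 3.61 ± 0.59, adjusted p = 0.0058, in recovered samples, and recovered and pre-leukemic samples were not called different (-0.63 ± 0.44, adjusted p = 0.273). Without healthy 2 the call in recovered samples ended (0.0869). Cmpk2, the mitochondrial nucleotide kinase whose gene lies next to Rsad2 (chromosome 12, 26469204 to 26479837), was more uneven. Cmpk2 was at 9.07, 0.133, 27.2 and 1.6 FPKM in recovered 1 to 4, between 12.6 and 24.7 FPKM in the pre-leukemic libraries (median 20.6), and at 0, 0 and 0.215 FPKM in healthy 1 to 3. Recovered 3 reached above the pre-leukemic range and recovered 2 was at the healthy level. Cmpk2 rose in pre-leukemic against healthy samples (4.20 ± 0.90, adjusted p = 0.00295), but not without healthy 2 (0.0534). The recovered change against pre-leukemic samples, -1.85 ± 0.71, adjusted p = 0.051, passed in 5 alternatives, among them without recovered 1 (0.0436) and without recovered 3 (0.00309).

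Trim30a, a ubiquitin ligase of the tripartite motif family, separated the pre-leukemic libraries from all others. Trim30a was at 6.18, 0.874, 4.66 and 10 FPKM in recovered 1 to 4, between 59.9 and 79.3 FPKM in the pre-leukemic libraries (median 67.3), and at 1.1, 3.55 and 1.98 FPKM in healthy 1 to 3. The groups of recovered and healthy libraries overlapped, and all pre-leukemic libraries lay above both. It changed by 4.36 ± 0.57, adjusted p = 6.74e-05, in pre-leukemic against healthy samples and by -3.69 ± 0.45, adjusted p = 1.88e-05, in recovered against pre-leukemic samples. Ifi44 was below 1 FPKM in the other recovered libraries and stood at 13.1 FPKM in recovered 3, with changes of 4.25 ± 0.77, adjusted p = 0.000956, in pre-leukemic against healthy samples and -3.0 ± 0.61, adjusted p = 0.00142, in recovered against pre-leukemic samples. It would not have passed the filter without the pre-leukemic libraries, so it was bound to be high there. Ifi35 changed by 2.60 ± 0.52 in pre-leukemic against healthy samples (adjusted p = 0.00196) and by -2.51 ± 0.41 in recovered against pre-leukemic samples (adjusted p = 0.000257), calls that ended on the TPM scale (0.222 and 0.0955).

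Bst2 (tetherin), which holds budding virus at the cell surface and is also known on plasma cells and plasmacytoid dendritic cells, and Zbp1, a sensor of Z-form nucleic acid that can trigger cell death, had the largest spread among healthy libraries. Bst2 was at 20, 90.4, 22.4 and 1.54 FPKM in recovered 1 to 4, between 68 and 159 FPKM in the pre-leukemic libraries (median 105) and at 23, 0 and 23.4 FPKM in healthy 1 to 3. Zbp1 was at 26.2, 95.8, 1.85 and 0.508 FPKM in recovered 1 to 4, between 88 and 238 FPKM in the pre-leukemic libraries (median 149.6) and at 7.6, 0 and 10 FPKM in healthy 1 to 3. Healthy 2 was listed at 0 for both. They rose in pre-leukemic against healthy samples (Bst2 4.43 ± 1.14, adjusted p = 0.00955; Zbp1 5.58 ± 1.24, adjusted p = 0.004), and without healthy 2 neither passed (0.33 and 0.155). The fall of Bst2 in recovered against pre-leukemic samples (-2.53 ± 0.90, adjusted p = 0.037) ended without recovered 1, 3 or 4, or any 1 of pre-leukemic 2 to 6 (0.0534 to 0.129), with no filter, a pseudocount of 0.1 and the replicate block (0.0784, 0.103 and 0.132). On the TPM scale the calls of Bst2 in both comparisons (0.0545 and 0.377) and of Zbp1 in recovered against pre-leukemic samples (-3.86 ± 0.98, adjusted p = 0.00655; 0.0806) ended.

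Parp14, an ADP-ribosyltransferase, rose in pre-leukemic against healthy samples (2.99 ± 0.79, adjusted p = 0.0116), though not on the TPM scale (0.152) or without healthy 2 (0.299), and fell in recovered against pre-leukemic samples (-3.19 ± 0.63, adjusted p = 0.00107). Lgals3bp, a secreted glycoprotein that binds galectins, was the most abundant member of the class, between 207 and 506 FPKM in the pre-leukemic libraries (median 309). It changed by 2.05 ± 0.58, adjusted p = 0.0173, against healthy and by -1.57 ± 0.46, adjusted p = 0.0145, in recovered against pre-leukemic samples. The first call ended on the TPM scale (0.693) and without healthy 2 (0.22), the second on the TPM scale (0.902). Xaf1, which opposes the apoptosis inhibitor XIAP, was not called in pre-leukemic against healthy samples (0.29 ± 0.67, adjusted p = 0.788). It was lower in recovered than in pre-leukemic samples (-1.85 ± 0.53, adjusted p = 0.0128), but not on the TPM scale (0.539).

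Guanylate-binding proteins (GBPs) and immunity-related GTPases (IRGs), 2 families induced above all by interferon gamma that attack vacuoles with pathogens, had 5 of 8 members higher in pre-leukemic than in healthy samples and 4 of 8 lower in recovered than in pre-leukemic samples. Igtp was at 17.8, 7.16, 6.58 and 12.2 FPKM in recovered 1 to 4, between 62.1 and 113 FPKM in the pre-leukemic libraries (median 87.3), and at 8.89, 0.22 and 8.9 FPKM in healthy 1 to 3. Every pre-leukemic library lay above all 7 others. Igtp (Irgm3) rose by 4.64 ± 0.64, adjusted p = 0.000103, against healthy samples and fell by 2.96 ± 0.50 in recovered against pre-leukemic samples (adjusted p = 0.000343), the fall not on the TPM scale (0.0644). Gbp4 was at 0.247, 0.371, 3.02 and 0.821 FPKM in recovered 1 to 4, between 30 and 64.8 FPKM in the pre-leukemic libraries (median 44), and at 1.21, 8.65 and 2.1 FPKM in healthy 1 to 3. Gbp4 separated in the same way (3.19 ± 0.59, adjusted p = 0.00113, against healthy; -4.61 ± 0.47, adjusted p = 3.48e-06, in recovered against pre-leukemic samples), and its first call ended on the TPM scale (0.0598).

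Gbp3 was at 1.16, 3.19, 0.721 and 7.42 FPKM in recovered 1 to 4, between 4.05 and 25.4 FPKM in the pre-leukemic libraries (median 14.3), and at 0.118, 0.143 and 0 FPKM in healthy 1 to 3. Gbp3 was higher in pre-leukemic than in healthy samples (3.67 ± 0.70, adjusted p = 0.00133) and lower in recovered than in pre-leukemic samples (-2.05 ± 0.55, adjusted p = 0.00909), the second not on the TPM scale (0.313). All 4 recovered libraries were nevertheless above the 3 healthy ones, a change of 1.62 ± 0.74, adjusted p = 0.292, that did not pass. Irgm1 rose in pre-leukemic against healthy samples (2.13 ± 0.51, adjusted p = 0.00632), though not on the TPM scale (0.435) or without healthy 2 (0.093), and fell in recovered against pre-leukemic samples (-2.07 ± 0.40, adjusted p = 0.000997), though not on the TPM scale (0.235).

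Iigp1 (Irga6) was at 17.9, 7.67, 77.2 and 9.88 FPKM in recovered 1 to 4, between 7.49 and 37.1 FPKM in the pre-leukemic libraries (median 25.4) and at 1.58, 3.57 and 0.821 FPKM in healthy 1 to 3. Recovered 3 held the highest value of all 13 libraries. Iigp1 rose in pre-leukemic against healthy samples (2.81 ± 0.78, adjusted p = 0.0149; 0.188 on the TPM scale and 0.0622 without healthy 2). Between recovered and pre-leukemic samples the change was -0.20 ± 0.61, adjusted p = 0.821. Gbp2, Gbp5 and Gbp7 were not called in any comparison. Gbp2 was at 39.2, 0, 15.6 and 3.15 FPKM in recovered 1 to 4, so that recovered 1 lay above and recovered 2 below every other library. Gbp5 was at most 2.11 FPKM anywhere. Gbp7 gave a change of 1.98 ± 0.77, adjusted p = 0.0713, in pre-leukemic against healthy samples, which passed in 5 alternatives, among them without pre-leukemic 6 (0.0371) and without recovered 3 (0.039). These 5 include the replicate block and healthy 1 and 3 kept apart, which count near-identical libraries as separate samples.

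Of the interferon-induced transmembrane proteins, which block the fusion of viruses with cell membranes, Ifitm2 and Ifitm3 ran against most members and Ifitm1 was not called. Ifitm2 was at 443, 576, 499.5 and 651 FPKM in recovered 1 to 4, between 11.4 and 47.9 FPKM in the pre-leukemic libraries (median 37.7), and at 345, 396 and 349.6 FPKM in healthy 1 to 3 (chromosome 7, 140954837 to 140955987). Every pre-leukemic library lay below all 7 others, and every recovered library above all healthy ones. Ifitm2 fell by 3.55 ± 0.45 in pre-leukemic against healthy samples (adjusted p = 5.53e-05) and was higher in recovered than in pre-leukemic samples (4.08 ± 0.36, adjusted p = 9.24e-07). It kept both calls under every alternative tried. The recovered change against healthy was 0.53 ± 0.48, adjusted p = 0.656.

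Ifitm3 was at 1307, 1067, 677 and 1351 FPKM in recovered 1 to 4, between 209 and 620.0 FPKM in the pre-leukemic libraries (median 382), and at 652, 935 and 617 FPKM in healthy 1 to 3 (chromosome 7, 141009586 to 141010770). Pre-leukemic 1 lay within the healthy range and the other pre-leukemic libraries below it. The fall in pre-leukemic against healthy samples (-1.08 ± 0.36, adjusted p = 0.038) was not called under quantile normalization (0.0848), with immunoglobulin genes left out of the scaling (0.0875), with no filter (0.073), without healthy 2 (0.357) or without any 1 of pre-leukemic 2 to 4 (0.0536 to 0.0655). Ifitm3 was higher in recovered than in pre-leukemic samples (1.54 ± 0.28, adjusted p = 0.000648) under every alternative. Ifitm1 was at 25.6, 0, 6.83 and 47.6 FPKM in recovered 1 to 4, between 14.3 and 81.9 FPKM in the pre-leukemic libraries (median 45.6), and at 56.2, 33.9 and 58 FPKM in healthy 1 to 3. Ifitm1 overlapped between all groups and was not called (-0.12 ± 1.10 in pre-leukemic against healthy, adjusted p = 0.95). The summed FPKM of the 3 genes was 1183 to 2050 in recovered, 246 to 733 in pre-leukemic and 1024 to 1365 in healthy libraries.

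In recovered samples the members differed in how far their levels lay from those of healthy samples. In 9 of 39 members all recovered libraries lay above all healthy libraries, against 6.64% of all tested genes. These were Irf7, Irf9, Oas3, Ifit1, Isg15, Rsad2, Gbp3, Iigp1 and Ifitm2. In 1, Ifit2, all recovered libraries lay below (10.7% of all tested genes). Of these, Ifit1 and Rsad2 passed the test. Oas3 was at most 0.427 FPKM in recovered libraries, so its place among the 9 rests on a few reads. In 15 of 39 members every recovered library lay below every pre-leukemic library, against 16.5% of all tested genes.

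Members varied more among recovered libraries than among the others. The median SD of log2(FPKM + 1) over the members was 1.04 in recovered (n = 4), 0.53 in pre-leukemic (n = 6) and 0.47 in healthy samples (n = 2), against 0.92, 0.54 and 0.37 over all tested genes. Irf9 had the smallest SD of any member among pre-leukemic libraries, 0.12, and Isg15 the largest, 1.14. Pre-leukemic 3 held the highest of the pre-leukemic values for 18 of the 39 members. Recovered 4 held the highest of the recovered values for 14 members and recovered 2 the lowest for 15. Recovered 3, with the most pan-leukocyte RNA of the 4, held the highest value for 11.

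The interferon ligands were mostly not seen. Of 11 ligand genes in the table, 10, among them Ifnb1, were listed at 0 in all 13 libraries. Ifng, interferon gamma, was between 8.26 and 28.6 FPKM in the pre-leukemic libraries (median 19.7) and listed at 0 in all recovered and healthy libraries (adjusted p = 3.93e-05 for pre-leukemic against healthy and 2.22e-06 for recovered against pre-leukemic). Ifng passed the filter through the pre-leukemic libraries alone and was bound to be high there, so these p-values are no separate support. T and NK cell markers, the usual sources of Ifng, summed to 597 to 952 FPKM in pre-leukemic and 18.8 to 37 FPKM in healthy libraries, and the part of these cells in the Ifng level was not tested.

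Of 16 receptors and proximal signalling genes, 3 were higher and 3 lower in pre-leukemic than in healthy samples, 4 higher and 6 lower in recovered than in pre-leukemic samples, and 1, the phosphatase gene Ptpn2, lower in recovered than in healthy samples, which ended in several alternatives (0.307 without healthy 2). The shares in the first comparison, 18.8% in each direction, lay near those of all tested genes (14.2% higher and 13.1% lower). In the second they were 25% higher and 37.5% lower, against 14.8% and 25.1% of all tested genes. With TPM scaling 0 were higher and 7 lower in pre-leukemic than in healthy samples, and 6 higher and 2 lower in recovered than in pre-leukemic samples. Among the higher as deposited were the phosphatase gene Ptpn6 (3.57 ± 0.76, adjusted p = 0.00283), known mainly from blood cells, and Il10rb, a chain shared by receptors of interferon lambda and interleukin 10 (1.71 ± 0.47, adjusted p = 0.0134). Without healthy 2 neither passed (0.0717 and 0.0646). The feedback inhibitors Socs3 and Socs1, which shut off Jak kinases, were lower. Socs3 was at 195, 199, 132 and 184 FPKM in recovered 1 to 4, between 17.8 and 44.4 FPKM in the pre-leukemic libraries (median 29.4), and at 329, 304 and 342 FPKM in healthy 1 to 3. All pre-leukemic libraries lay below the other 7. Socs3 changed by -3.40 ± 0.35, adjusted p = 9.66e-06, in pre-leukemic against healthy samples, and by 2.54 ± 0.28, adjusted p = 6.81e-06, in recovered against pre-leukemic samples. Socs1 changed by -3.07 ± 0.61, adjusted p = 0.00176, and 3.56 ± 0.48, adjusted p = 4.59e-05, in the same comparisons. Ifngr2, the accessory chain of the interferon gamma receptor, was lower in pre-leukemic than in healthy samples (-2.45 ± 0.50, adjusted p = 0.00227). In that comparison Ifngr1, Ifnar1 and Ifnar2 were not called (-0.23 ± 0.40, 0.42 ± 0.54 and 1.29 ± 0.55). Ifnar2 was lower in recovered than in pre-leukemic samples (-2.13 ± 0.44, adjusted p = 0.00147), though not on the TPM scale (0.275).

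Among nucleic acid sensing genes upstream of interferon, 7 of 15 tested were higher and 1 lower in pre-leukemic than in healthy samples, and 10 were lower and 1 higher in recovered than in pre-leukemic samples. These are 46.7% higher and 6.67% lower, against 14.2% and 13.1% of all tested genes, and 66.7% lower and 6.67% higher, against 25.1% and 14.8%. With TPM scaling 4 were higher and 1 lower in the first comparison, and 4 lower and 1 higher in the second. Genes that passed the filter through the pre-leukemic libraries alone are bound to be high there, and the list was not recounted without them. Irf8, a factor of myeloid and lymphoid cells, rose by 5.91 ± 0.74, adjusted p = 4.58e-05, and Tmem173 (STING), the adaptor of DNA sensing, by 4.26 ± 0.64, adjusted p = 0.000212. Irf2 rose by 2.92 ± 0.58, adjusted p = 0.00178. The lower gene was Myd88, the adaptor of Toll-like receptors (-1.62 ± 0.49, adjusted p = 0.0238; 0.183 without healthy 2).

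A second list of interferon-stimulated genes, outside the 39, was also tested. Of 52 tested, 32 were higher and 1 lower in pre-leukemic than in healthy samples (median change 2.23), and 31 were lower and 3 higher in recovered than in pre-leukemic samples (median -1.98). These are 61.5% higher and 59.6% lower, against 14.2% and 25.1% of all tested genes, whose medians were 0.20 and -0.41. In the first comparison 5 of the 52 were listed at 0 in every library of a group, and without them the median was 2.26. This list was not recounted without genes that passed the filter through the pre-leukemic libraries alone, which are bound to be high there. With TPM scaling 19 were higher and 3 lower in the first comparison (median 0.93), and 16 lower and 6 higher in the second (median -0.78). Gbp8 rose by 6.16 ± 0.57, adjusted p = 3.78e-06, the nucleotide hydrolase Samhd1 by 3.50 ± 0.37, adjusted p = 1.03e-05, and Phf11a by 3.64 ± 0.46, adjusted p = 5.05e-05. Between recovered and healthy samples 3 were higher (5.77%) and 1 lower (1.92%), against 0.518% and 1.99% of all tested genes. The higher were the chemokines Cxcl10 and Cxcl9, which draw T cells, and the nuclear body protein Sp100, and the lower was Eif2ak2 (PKR), a kinase that halts translation on viral RNA (-2.28 ± 0.52, adjusted p = 0.0347); they are named because they were few and were chosen after their values were seen. Cxcl10 was at 228, 176, 644 and 419.6 FPKM in recovered 1 to 4, between 139.6 and 783 FPKM in the pre-leukemic libraries (median 304), and at 22.1, 18.9 and 25.3 FPKM in healthy 1 to 3. Cxcl10 changed by 3.87 ± 0.61, adjusted p = 0.00486, in recovered against healthy samples and was not called between recovered and pre-leukemic samples (-0.02 ± 0.46, adjusted p = 0.978). Cxcl9 was at 9.78, 50.1, 80.2 and 31.2 FPKM in recovered 1 to 4, between 0 and 4.87 FPKM in the pre-leukemic libraries (median 0.153), and at 0.946, 2.01 and 0.792 FPKM in healthy 1 to 3. Every recovered library lay above all others for Cxcl9 (3.87 ± 0.90, adjusted p = 0.0372, against healthy; 4.27 ± 0.67, adjusted p = 0.00018, against pre-leukemic). Sp100 changed by 2.49 ± 0.57, adjusted p = 0.0343, in recovered against healthy samples. Without healthy 2 the calls in recovered against healthy samples ended for Cxcl10 (0.0981), Cxcl9 (0.242), Sp100 (0.436) and Eif2ak2 (0.33). Other alternatives ended them for Cxcl9 (adjusted p = 0.0504 to 0.185), Sp100 (0.0503 to 0.0851) and Eif2ak2 (0.053 to 0.157).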

How the data were processed

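RNA from 13 libraries of sorted mouse bone marrow MSCs was sequenced by the authors after a published method of RNA extraction and cDNA synthesis and Nextera XT tagging, per the labels' protocols. The authors deposited 1 table of FPKM per gene for all libraries. Per the submitters' processing notes, bcl2fastq, TopHat, Cufflinks 2.2.1 and Cuffnorm were used with mm10, while the sources used here name neither the annotation nor the library scaling. FPKM are not counts, so no count model was used. A row without a gene name, at 0 throughout, was left out, leaving 33432 genes.

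Here, log2(FPKM + 1) of 13118 genes (1 FPKM or more in 3 or more libraries) was fitted with limma 3.58.1 (R 4.3.3; trended variance, all 3 groups in 1 fit of 12 samples), with Benjamini-Hochberg adjustment over all genes. The script was tested on simulated data. Depth was estimated from the steps of low FPKM values, and intervals from it would cover counting error only. Alternatives were quantile, TPM and immunoglobulin-free scaling, a pseudocount of 0.1, no filter, a mean of at least 5 FPKM, healthy 1 and 3 apart, the replicate number as a block, and each library left out. The block fit also kept healthy 1 and 3 apart, so it too counts these near-identical libraries as separate samples.

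The members and lists were chosen with earlier results of these data known. Values in every library are given for up to 3 members per class with the smallest p in pre-leukemic against healthy samples, all members of classes of 3 or fewer, members called against the main direction, and those called in recovered against healthy samples. Other members are described with the values a statement rests on. Up to 3 genes of each further list were taken by the same p, of which 1 is not reported here. Other genes of these lists (Ptpn2, Ptpn6, Il10rb, the interferon receptor chains, Myd88, Cxcl9, Cxcl10, Sp100 and Eif2ak2) were chosen after their values were seen. Coordinates are GENCODE vM21 (GRCm38, the mm10 assembly). RefSeq promoter sequences were matched by exact symbol.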

Additional observations from a re-analysis of the deposited data

Results flagged for a closer look

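In 10 of 78 combinations of a member with the recovered or pre-leukemic group, 1 library lay far from the others of its group by Dixon's gap test. Chance alone gives this in about 1 of 20 such groups if values follow a normal distribution. The distances are on the FPKM scale, where values need not do so, and members share the same libraries. The count of 10 therefore cannot be set against that rate.

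Recovered 4 was the highest recovered library by such a gap for Ifih1 (14.1 FPKM), Oas2 (24.5 FPKM) and Oas3 (0.427 FPKM). Recovered 3 was the highest for Ifi44 (13.1 FPKM), Gbp7 (11.7 FPKM) and Iigp1 (77.2 FPKM). Recovered 1 stood apart for Oas1a at 5.18 FPKM and recovered 2 for Gbp5 at 2.11 FPKM. Among pre-leukemic libraries, pre-leukemic 3 was the highest for Ifit1 at 65.7 FPKM, and pre-leukemic 4 the lowest for Oasl2 at 12.5 FPKM.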

How the results depend on the processing

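Of the 28 members called in pre-leukemic against healthy samples, 12 kept the call under every alternative, and so did 12 of the 24 called in recovered against pre-leukemic samples and 0 of the 2 called in recovered against healthy samples. The first 12 include Oas3, Oasl1, Mx1, Mx2 and Ifi44, and the second 12 include Oas3, Oasl1, Mx1 and Ifi44. These genes passed the filter through the pre-leukemic libraries, so they were bound to be high there. On the TPM scale, 14 in place of 26 members were higher in pre-leukemic samples, 10 in place of 22 were lower in recovered than in pre-leukemic samples, and the change of Irf9 in that comparison was 0.0097, of opposite sign. Members lower in pre-leukemic samples numbered 1 in place of 2 under quantile normalization, with immunoglobulin genes left out of the scaling, and with no filter. With healthy 1 and 3 apart, 6 members were higher and 1 lower in recovered than in healthy samples, and over all genes 231 higher and 536 lower. With a pseudocount of 0.1, 1 member was lower. Quantile normalization gave 145 in place of 261 genes lower in that comparison.

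Leaving out each library in turn gave 15 to 29 members higher and 1 to 2 lower in pre-leukemic than in healthy samples, 20 to 24 lower and 2 higher in recovered than in pre-leukemic samples, and 0 to 3 higher and 0 lower in recovered than in healthy samples. The lowest counts of higher members came without healthy 2, with 785 genes higher and 931 lower over the whole table in pre-leukemic against healthy samples and 7 higher and 75 lower in recovered against healthy samples. Without recovered 1 the last comparison gave 182 higher and 500 lower. With any library but healthy 2 left out, 1606 to 2128 genes were higher and 1513 to 1984 lower over the whole table in pre-leukemic against healthy samples. In recovered against pre-leukemic samples 1762 to 2105 genes were higher and 2874 to 3308 lower. The causes were not tested.

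Labels give the groups the same replicate numbers, but samples with the same number did not deviate together (r = -0.019 to 0.034 over 10 pairs). With the number as a replicate block, 28 members were higher and 2 lower in pre-leukemic than in healthy samples, 2 higher and 21 lower in recovered than in pre-leukemic samples, and 2 higher and 0 lower in recovered than in healthy samples. Over all 13118 genes this fit gave 1953 higher and 1747 lower, 1750 higher and 2777 lower, and 65 higher and 238 lower in the same order. Counting only genes that passed the filter without pre-leukemic libraries was chosen after seeing the data. It kept the fit and its adjusted p-values and could only take out 6 members, so it is no test of the calls. It left 21 members higher and 2 lower in pre-leukemic than in healthy samples (63.6% and 6.06%, against 9.43% and 15.9% of all such genes). In recovered against pre-leukemic samples it left 17 lower and 2 higher (51.5% and 6.06%, against 19.9% and 18%).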
